A study of Mus musculus with 2 samples.

Results

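The mouse mitochondrial chromosome carries 37 annotated genes, and all 37 were present in the gene tables of 2 total RNA libraries from embryonic hindbrain. They were taken as every gene whose symbol starts with mt-, out of 43346 Ensembl genes, and comprised 13 mRNA, 2 rRNA and 22 tRNA genes. The tissue was the hindbrain of B6NCrl mouse embryos at embryonic day 15.5, described as healthy, and both libraries were pools of male and female embryos. Replicate 1 pooled 78 embryos and replicate 2 pooled 62, so a value is that of a pool and not of an animal. There was a single group and no treatment or mutation, so no contrast between conditions and no p-value could be had. Each library was made from 10 ng of RNA over 200 nt with spike-in RNAs. Of the hindbrain markers Hoxa2, Hoxb2, Hoxa3, Hoxb3, Hoxb4 and Hoxb5, all 6 stood at 1 TPM or more in both libraries, between 2.79 and 113 TPM. Of 5 forebrain markers only Lhx2 did, with 50.7 and 9.96 TPM, and their summed level was 52.5 TPM in replicate 1 and 13.6 TPM in replicate 2. Below, ± is the SD over the 2 libraries (n = 2). The tables carry no molecular identifiers, so counting intervals cover counting error only.

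Mitochondrial DNA is a small circle that is transcribed on both strands into long RNAs. Most mRNAs and both rRNAs in these RNAs are flanked by tRNAs, whose excision by nuclear-encoded nucleases frees the RNAs between them. The mRNAs encode core subunits of respiratory chain complexes I, III and IV and of the ATP synthase, called complex V. The rRNAs and tRNAs serve the organelle's own ribosomes. In developing brain the respiratory chain supplies a growing share of neuronal ATP.

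No read was counted for any tRNA. All 22 tRNA genes, 14 transcribed from the heavy strand and 8 from the light strand, had an estimated count of 0 in replicate 1 and in replicate 2. They are 59 to 75 nt long, with a median of 68.5 nt. The longest and the shortest are shown because they bound what a read had to fit into. Sequences are from the GENCODE M21 transcripts on GRCm38, the assembly also called mm10, and are written 5′ to 3′ as the RNA strand in DNA letters.
mt-Tl1, a leucine tRNA gene at chrM:2676-2750: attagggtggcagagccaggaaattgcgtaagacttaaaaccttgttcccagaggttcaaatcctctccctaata
mt-Ts2, a serine tRNA gene at chrM:11613-11671: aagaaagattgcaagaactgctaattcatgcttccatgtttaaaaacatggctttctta

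The deposited tables give each transcript an effective length, the number of positions at which a read can lie wholly inside it, and this was 99 nt below the annotated length. A transcript therefore needed 100 nt to hold a read, and mt-Tl1 falls 25 nt short of that. The effective length of all 22 tRNA genes was 0, and the upper bound of their TPM interval was 0 too. The counting rule sets the same outcome for any gene under 100 nt: of 2218 such Ensembl genes, 0% had a count above 0 in either library. Of the 41128 genes of 100 nt or more, 63.1% did. The shortest feature of any kind with a count was 100 nt long. Separately, the RNA was taken above 200 nt, which mature tRNAs do not reach. The zeros thus give no upper limit on tRNA abundance, and the shares of the size selection and of the counting in them cannot be told apart.

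**Figure D1:**
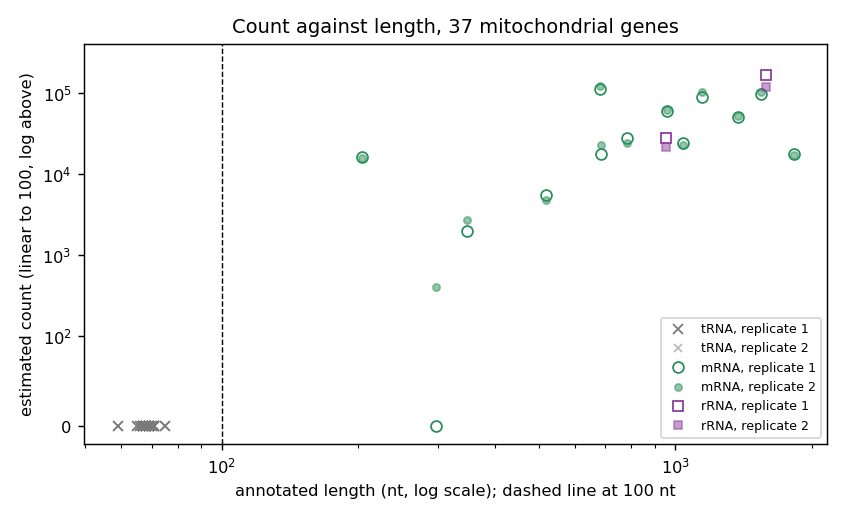
Estimated count against annotated length (log scale) for the 37 mitochondrial genes in both libraries, with the count axis linear to 100 and logarithmic above. The 22 tRNAs lie at 0 to the left of the dashed line at 100 nt, while every rRNA and mRNA to its right has counts except mt-Nd4l, which is at 0 in replicate 1.

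Several mRNAs could not be separated from near-identical nuclear copies of mitochondrial DNA. Such copies are stretches of the organelle's genome that were inserted into chromosomes. Of 13 mRNA genes, 8 shared at least 1 exact 100-base word with an annotated nuclear gene. None of the other 5 mRNAs and neither rRNA did, among the annotated transcripts searched. Below, a copy always means an annotated one. There were 10 such nuclear genes, all annotated as unprocessed pseudogenes. Of these, 7 lie side by side on the minus strand of chromosome 1, at chr1:24611535-24616197, and 3 lie on chromosome 2, at chr2:22587291-22590533. The chromosome 1 copies follow the mitochondrial gene order from mt-Co1 to mt-Nd4, and 5 of the 7 have no mismatch to the mitochondrial gene over their length. The copy of mt-Atp6 ends at chr1:24614651 and that of mt-Co2 starts at chr1:24614885, and the sequence between them was not searched. The mt-Atp8 gene lies between mt-Co2 and mt-Atp6, and whether it has an unannotated copy there was not tested.

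Stretches of 3 pairs are shown because they hold the substitutions, or the missing base, at which gene and copy part. Outside them, mt-Co1 also has a long stretch before base 1054 that Gm29216 does not cover, and Gm28438 is 345 bases long against 348 for mt-Nd3. Capitals mark bases that differ or that the copy lacks, and positions are counted from 1 at the first base of the mitochondrial gene.
mt-Nd3, bases 1 to 60, chrM:9459-9518: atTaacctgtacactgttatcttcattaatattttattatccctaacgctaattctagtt
Gm28438, bases 1 to 60, chr1:24613060-24613119: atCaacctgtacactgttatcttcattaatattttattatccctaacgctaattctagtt
mt-Co3, bases 725 to 784, chrM:9331-9390: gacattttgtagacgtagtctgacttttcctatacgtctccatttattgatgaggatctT
Gm28437, bases 725 to 783, chr1:24613189-24613247: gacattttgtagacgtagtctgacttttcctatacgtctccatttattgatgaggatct
mt-Co1, bases 1054 to 1113, chrM:6381-6440: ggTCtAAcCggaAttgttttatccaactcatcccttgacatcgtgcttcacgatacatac
Gm29216, bases 1 to 60, chr1:24616138-24616197: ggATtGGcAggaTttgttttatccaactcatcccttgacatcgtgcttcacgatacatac

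The mt-Nd3 copy differed by the single substitution T3C in its 345 bases. The mt-Co3 copy Gm28437 differed only in lacking the last base, so 684 of the 685 words of mt-Co3, which is 99.9%, were shared with it. Gm29216 matches mt-Co1 from base 1054 on with 6 substitutions near its start, T1056A, C1057T, A1059G, A1060G, C1062A and A1066T, and shared 26.3% of the words of mt-Co1. The shares of words for mt-Co2 with Gm28661, mt-Atp6 with Gm10925, mt-Nd4l with Gm10222 and mt-Nd3 with Gm28438 were 99.5%, 99.5%, 98.5% and 97.6%. For mt-Nd4 with Gm28439 it was 60.8%, since that copy covers only the first part of the gene.

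The estimated counts were split unevenly within these pairs. For mt-Co3, a core subunit of cytochrome c oxidase, 27655 counts in replicate 1 and 24367 in replicate 2 stood under the mitochondrial gene, against 153296 and 153402 under Gm28437. The copy thus held 84.7% and 86.3% of the pair. For mt-Co2, which carries the copper site that takes electrons from cytochrome c, 17591 and 22498 counts stood under the gene and 49583 and 47281 under Gm28661. For mt-Nd3, a complex I subunit, it was 1947 and 2732 counts under the gene and 10902 and 8839 under Gm28438. In these 3 pairs the larger part lay under the nuclear symbol in both libraries.

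In mt-Atp6, the proton channel subunit of the ATP synthase, the split went the other way. The gene held 110497 and 119904 counts and Gm10925 held 26353 and 18858. For mt-Co1, the catalytic subunit of cytochrome c oxidase, the gene held 97694 and 101650.4 counts and Gm29216 held 32351 and 31145. The copy of mt-Nd4, Gm28439, held 3.09 and 6.43 counts beside 50651 and 51666 for the gene, although all 777 of its words were shared (this copy stood under 1 TPM, outside the rule for named genes, and was added after its values were seen). The 3 copies on chromosome 2 held 1.38 to 57.8 counts in each library, and only the mt-Co2 copy Gm13341 among them reached 1 TPM in both, with 1.82 and 1.32 TPM.

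The gene at which the split decided detection was mt-Nd4l, a small complex I subunit. It was listed at 0 counts and 0 TPM in replicate 1 and at 408 counts and 75.4 TPM in replicate 2, while Gm10222 held 4595 and 4087 counts. The deposited interval for mt-Nd4l ran from 0.000313 to 293 TPM in replicate 1 and from 31.8 to 261 TPM in replicate 2, so the libraries overlap. No fold change is given for it.

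**Figure D2:**
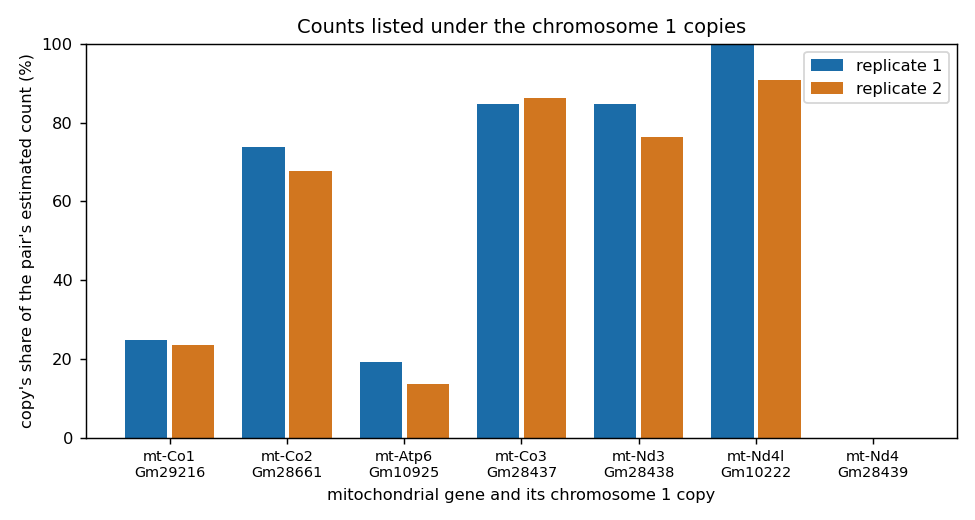
Share of the estimated count of each pair that stands under the chromosome 1 copy, in percent, for 7 mitochondrial genes and both libraries. The copies of mt-Co2, mt-Co3, mt-Nd3 and mt-Nd4l hold most of their pair, and the copy of mt-Nd4 holds almost none.

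Within a pair the sum was better defined than the parts. None of the 8 mRNA genes with a copy had a whole-number estimate in both libraries, whereas the sums of gene and copies were whole for all 8, to within 0.02 counts. The sum for mt-Nd3 was 12849 counts in replicate 1 and 11571 in replicate 2, and that for mt-Co1 was 130102 and 132830.0 counts. The 5 mRNAs without an annotated copy had whole counts on their own. The posterior SD that the authors deposited for each count was 40436 counts in replicate 1 and 42416 in replicate 2 for mt-Co3, and the same for Gm28437. It was 0.03 counts or less for the 5 mRNAs and 2 rRNAs without an annotated copy.

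The width of the deposited TPM interval showed the same genes. Its confidence level is not given in the sources used here. As a percentage of the posterior mean TPM it was 191% and 184% for mt-Co3, 136% and 116% for mt-Co2, 74.2% and 54.4% for mt-Nd3 and 631% and 214% for mt-Nd4l. For mt-Atp6 it was 50.9% and 42.4%. In the other 10 mRNAs and rRNAs it lay between 0.987% and 5.68%. Both libraries had 14 mitochondrial genes at 100 TPM or higher. For 3 of the 14, mt-Co2, mt-Co3 and mt-Nd3, the interval was wider than 50% in both, against 0.485% of all 1650 genes at that level. That share is 8 genes and includes these 3. Copies at that level had wide intervals too, as in replicate 1 Gm28661 (797 to 3398 TPM), Gm10925 (663 to 3954 TPM) and Gm28437 (2553 to 8984 TPM). The interval of Gm28438 was narrower (1550 to 1788 TPM). Of the 15 mRNAs and rRNAs, 7 have a chromosome 1 copy, and all 4 with an interval wider than 50% in both libraries are among them.

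Together the 10 copies held 0.693% of the counts in genes in replicate 1 and 0.609% in replicate 2. Mitochondrial symbols held 1.77% (95% exact Clopper-Pearson interval 1.769 to 1.777) of 40020322 counts in replicate 1 and 1.59% (1.584 to 1.591) of 43263959 in replicate 2. The mRNAs held 1.29% and 1.27%, the rRNAs 0.480% and 0.321%, and the tRNAs 0. With the copies added, the shares were 2.47% and 2.20%. Whether a read under a copy came from the nuclear or the mitochondrial locus cannot be told apart where the sequences are identical.

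At 1 TPM or more in both libraries, 14 of the 37 genes were detected, 12 mRNAs and both rRNAs. Over all Ensembl genes that rule called 35.6%. TPM is a length-corrected relative abundance, here scaled over every feature of the table. By mean TPM mt-Atp6 ranked 5 and mt-Atp8 ranked 8 among all Ensembl genes.

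**Figure D3:**
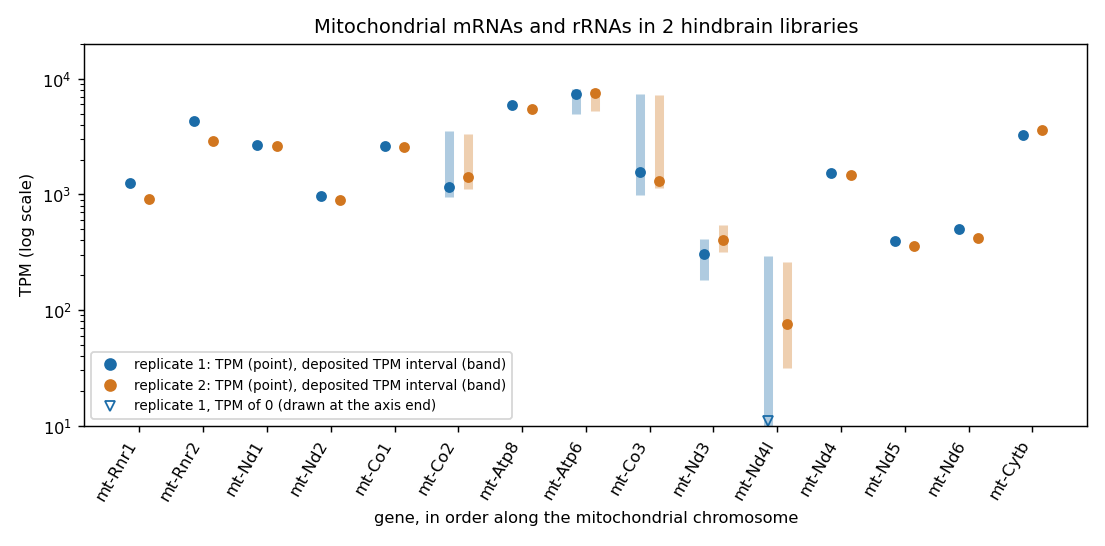
TPM (log scale) of the 13 mRNAs and 2 rRNAs in order along the chromosome, as points for each library, with the deposited TPM interval as a band. The bands are wider than the points only for mt-Co2, mt-Atp6, mt-Co3, mt-Nd3 and mt-Nd4l, and the rRNAs are lower in replicate 2. A band holds the posterior mean TPM, so it is not the error of the point, which can lie above it.

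The 2 rRNAs were lower in replicate 2. The large ribosomal subunit RNA mt-Rnr2, at chrM:1094-2675, had 164257 counts in replicate 1 and 117489 in replicate 2, or 4280.0 and 2899 TPM. The small subunit RNA mt-Rnr1, at chrM:70-1024, had 27956 and 21280.0 counts, or 1262 and 910 TPM. Neither shared a word with a copy, so the values do not depend on a split. The large subunit RNA was 3.39 and 3.19 times as high as the small one in TPM, and a mitochondrial ribosome contains both. In whole tissue, fewer cells rich in an RNA and less of it per cell cannot be told apart. Against mt-Cytb, the mRNA of cytochrome b, mt-Rnr2 was 1.30 times as high in replicate 1 and 0.804 times in replicate 2, so their order changed between the pools.

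Complex V mRNAs were highest by their own estimates. The pair mt-Atp8 (chrM:7766-7969) and mt-Atp6 (chrM:7927-8607) lies on a single mRNA and overlaps by 43 nt. In TPM mt-Atp6 had 7336 and 7539, and mt-Atp8 had 5951 and 5466. The mt-Atp8 gene is 204 nt long and has an effective length of 105 nt, so its 16171 and 15684 counts give a high TPM that depends on that offset. A read that starts before mt-Atp6 and ends after mt-Atp8 lies wholly inside neither annotated gene. Their ratio, mt-Atp6 over mt-Atp8, was 1.23 and 1.38 by own estimates and 1.53 and 1.60 with the copy's counts added to mt-Atp6.

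Complex III is represented by mt-Cytb alone (chrM:14145-15288), at 3293 and 3606 TPM, which was 3449 ± 221 TPM. It had 89049 and 102967 counts, more than any other of the 5 mRNAs with no annotated copy. Among these only mt-Atp8 was higher in TPM.

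Complex IV mRNAs encode the catalytic core of cytochrome c oxidase. The genes are mt-Co1 (chrM:5328-6872), mt-Co2 (chrM:7013-7696) and mt-Co3 (chrM:8607-9390). By their own estimates mt-Co1 had 2611 and 2572 TPM, mt-Co2 1162 and 1407 TPM and mt-Co3 1560.1 and 1302 TPM. The counts of the copies were then added to each gene, a level called unsplit here and computed over the gene's own effective length. In the same gene order, unsplit levels were 3477 and 3361, 4439 and 4366, and 10208 and 9496 TPM. The unsplit level takes every count under a copy as mitochondrial, which was not tested, so it is an upper limit as to the split. The summed level of the complex was 5307 ± 36.4 TPM by own estimates and 17674 ± 636 TPM unsplit. The SD of the own estimates leaves out the uncertainty of the split, where mt-Co3 had a posterior SD of 40436 and 42416 counts. Of the 3 mRNAs mt-Co1 was highest by own estimates and lowest unsplit, while mt-Co2 and mt-Co3 overlapped between libraries by own estimates. By posterior mean TPM, however, mt-Co3 stood above mt-Co1, at 3363 and 3302 against 2553 and 2518 TPM. The deposited intervals of mt-Co2 and mt-Co3 also span that of mt-Co1 in both libraries. The order by own estimates is therefore not settled.

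Complex I mRNAs covered a wide range. The gene nearest the rRNAs, mt-Nd1 (chrM:2751-3707), had 2667 and 2623 TPM, and mt-Nd4 (chrM:10167-11544) had 1530.3 and 1478 TPM. Then came mt-Nd2 (chrM:3914-4951) with 977 and 895 TPM. All of these encode membrane subunits, and none depended much on an annotated copy. For mt-Nd1 none was found, and those of mt-Nd4 and mt-Nd2 held at most 0.0124% and 0.0118% of the pair. The longest mRNA gene, mt-Nd5 (chrM:11742-13565), had only 399 and 358 TPM. By contrast mt-Nd3 (chrM:9459-9806) went from 302 and 402 TPM to 1994 and 1700.4 TPM unsplit, and mt-Nd4l (chrM:9877-10173) to 897 and 831 TPM.

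The only mRNA transcribed from the light strand, mt-Nd6 (chrM:13552-14070), had 5469 and 4797 counts, or 503 and 418 TPM. It held 1.63 ± 0.207% of the summed mRNA TPM. It exceeded its convergent neighbour mt-Nd5, with which it overlaps by 14 nt, by 1.26 and 1.17 times in TPM. The sources used here do not say whether counting used strand, so antisense RNA over mt-Nd6 cannot be told apart from its mRNA.

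Ordered by unsplit level, mt-Co3 was highest at 9852 ± 503 TPM, followed by mt-Atp6 at 8905 ± 256, mt-Atp8 at 5709 ± 343 and mt-Co2 at 4402 ± 51.6 TPM. Cytochrome b and mt-Co1 (3419 ± 81.6 TPM) overlapped between libraries and had no order. Below them stood mt-Nd1 at 2645 ± 30.9, mt-Nd3 at 1847 ± 208 and mt-Nd4 at 1504 ± 36.8 TPM. Then mt-Nd2 at 936 ± 58.4 and mt-Nd4l at 864 ± 46.7 TPM overlapped as well. Lowest were mt-Nd6 at 461 ± 60.3 and mt-Nd5 at 378 ± 29.2 TPM. Of 12 pairs of neighbours in this order only those 2 overlapped. The order, and the range that follows, take every count under a copy as mitochondrial, which was not tested. The highest mRNA stood 25.6 times above the lowest in replicate 1 and 26.6 times in replicate 2, in unsplit TPM, although 12 of the 13 arise from the same long RNA. Across those 12 genes the rank correlation of unsplit TPM with gene start along the chromosome was -0.23, and with length -0.35 (Spearman). Length also enters TPM itself, and the genes share both libraries, so these are descriptions.

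Between the pools, the mRNAs differed little and the rRNAs more. The log2 ratio of replicate 2 over replicate 1, after scaling by the trimmed mean of M-values (TMM), was -0.50 (95% counting interval -0.53 to -0.48) for mt-Rnr1 and -0.59 (-0.60 to -0.58) for mt-Rnr2. Of the 2, mt-Rnr2 was past a 1.5-fold difference, which 6.48% of the 17048 genes averaging at least 20 counts passed, 4.25% with the lower and 2.23% with the higher value in replicate 2. Of the 8181 genes averaging at least 1000 counts, 0.477% passed it, 0.379% lower and 0.0978% higher. It is close to that limit: of 4 scalings of the counts 3 passed it, with -0.60 by library totals and -0.71 by spike-in totals, while DESeq2 size factors gave -0.58. The log2 difference of TPM was -0.56, also short of it. With 1 library per pool, this compares 2 libraries.

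For mRNAs the median log2 ratio was -0.05 over 13 genes by own counts and -0.14 by unsplit counts, beside 0.01 over those 8181 genes. The own-count median was also -0.05 with mt-Nd4l set to a floor of 3 counts in replicate 1. By own counts only mt-Nd4l was past 1.5-fold. That rests on its count of 0 in replicate 1, and its deposited intervals overlap, so it is not read as a difference. By unsplit counts all 13 lay between -0.30 for mt-Nd6 and 0.10 for mt-Cytb, and none was past 1.5-fold. The 5th to 95th percentile of well-counted genes was -0.19 to 0.22, and outside it lay mt-Nd3 at -0.26 and mt-Nd6 at -0.30. Cytochrome b was the only mRNA higher in replicate 2 by unsplit counts, and its ratio was -0.01 when scaled by spike-in totals, which lowers every ratio by 0.11. Own counts gave other directions for split genes. The ratio of mt-Nd3 was 0.38 by its own count, that of Gm28438 was -0.41, and that of their sum was -0.26. For mt-Co2 it was 0.25 by its own count, -0.18 for Gm28661 and -0.05 for the sum with its copies. Of 5 mRNAs above 0 by their own counts, only mt-Cytb was above 0 once the copies were added.

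Ratios of other RNAs are set beside those of the rRNAs. Over the 17048 genes, 49.5% were below 0, and over the 8181 genes averaging at least 1000 counts, 44.7% were. A list of RNAs made by RNA polymerase III, which lack the poly(A) tail of most mRNAs, was chosen after the rRNA values were seen. In it Rn7sk had a log2 ratio of -0.51, Rpph1 of -0.65, Rmrp of -0.23 (from 22.8 and 21 counts) and Rn7s1 and Rn7s2 of -0.28 each, the last 2 being near-identical copies. Of these 5 only Rpph1 was past 1.5-fold. All 5 erythroid markers, Alas2 and 4 globin genes, had ratios between -0.43 and -0.31, none past 1.5-fold, with a summed level of 15771 and 12383 TPM. The neuronal markers Tubb3, Stmn2 and Snap25 ranged from -0.02 to 0.28. The choroid plexus markers Ttr, Folr1 and Kcnj13 had 0.42, 0.73 and 0.15, with a summed level of 904 and 1239 TPM. Of 5 skeletal muscle markers 4 were below 0, and their summed level was 16.1 and 13.7 TPM. The part of cell composition or of RNA type in the rRNA difference was not tested.

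**Figure D4:**
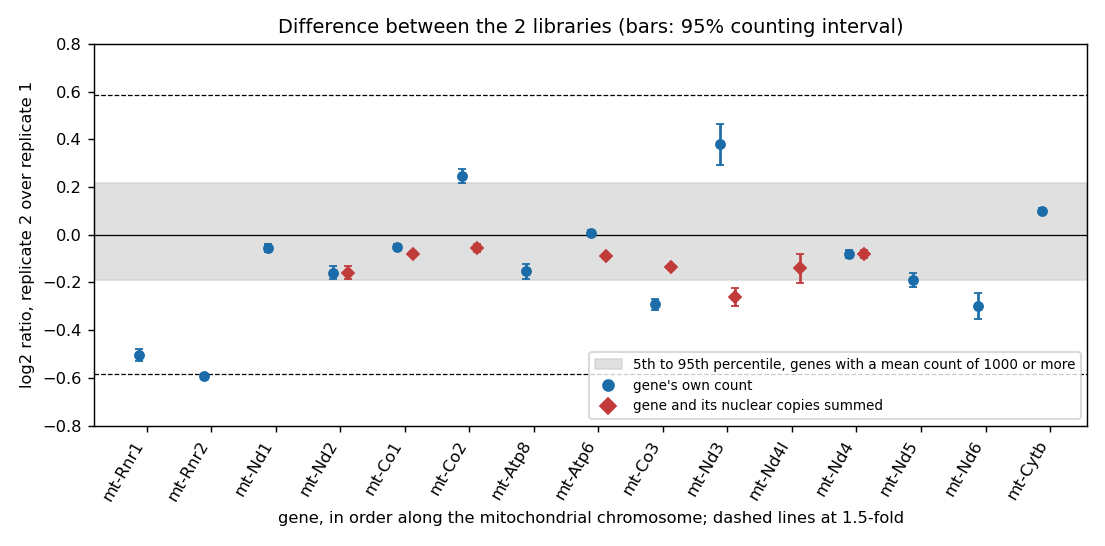
Log2 ratio of replicate 2 over replicate 1 for each mRNA and rRNA, by the gene's own count (circles) and with its nuclear copies summed (diamonds), with 95% counting intervals, dashed lines at 1.5-fold and a grey band for the 5th to 95th percentile of well-counted genes. Both rRNAs lie below the band, and the scatter of mt-Co2, mt-Co3 and mt-Nd3 shrinks once copies are summed (mt-Nd4l is drawn by its sum only).

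The nuclear genes that make and use these RNAs were all expressed. All 154 genes listed by role reached the same 1 TPM in both libraries, against 63.1% of nuclear protein-coding genes. The lists were chosen for this pathway and most of its genes are expressed in any cell with mitochondria, so that share is a description. Of the 154, only Mterf1b was past 1.5-fold between the pools, at 81.4 and 52.5 counts or 2.48 and 1.51 TPM. It has a near-identical relative, Mterf1a. Over all genes, 6.48% of the 17048 averaging at least 20 counts were past 1.5-fold, and 0.477% of the 8181 averaging at least 1000. The median log2 ratio over the 154 was -0.02.

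Genes of mitochondrial transcription and replication, 18 in all, had a median of 16.2 ± 1.32 TPM. The single-stranded DNA-binding protein Ssbp1 led at 80.0 ± 2.96 TPM, before Mterf3, a transcription regulator, at 49.98 ± 0.693 and Tfam, which packages the DNA and starts transcription, at 35.7 ± 5.27 TPM. The 5 genes that cut and finish the tRNAs had a median of 24.6 ± 2.61 TPM. Hsd17b10, a part of the nuclease that cuts the 5′ end, had 96.2 ± 5.51 TPM. Trnt1, which adds the CCA end, had 43.9 ± 0.629 TPM, and Elac2, which cuts the 3′ end, had 24.6 ± 2.61 TPM. So mRNAs of enzymes that cut and finish tRNAs were measured, although the tRNAs themselves were not.

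Genes of RNA stability and decay, 17 in all, had a median of 26.0 ± 0.544 TPM. Slirp, a partner of Lrpprc that protects mitochondrial mRNAs, led at 200.3 ± 7.58 TPM, before Fastk at 84.9 ± 9.96 and Rexo2, which degrades short RNAs, at 66.1 ± 3.99 TPM. The 8 genes of tRNA modification had a median of 15.05 ± 0.0106 TPM, led by Trmu at 38.8 ± 3.01, Mto1 at 23.8 ± 0.876 and Pus1 at 18.5 ± 0.410 TPM.

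The 19 tRNA synthetases, which charge tRNAs with amino acids, had a median of 15.3 ± 0.537 TPM. The leucine enzyme Lars2 stood far above the rest at 602 ± 60.2 TPM, and was listed with a single transcript of 3881 nt. It shared at most 14 bases in a row with any mitochondrial gene. Where along that transcript its reads lie was not analysed here, so the value is the level listed under Lars2 and may include reads of another RNA. Next were Gars at 158 ± 1.36 and Kars at 130.1 ± 7.38 TPM, which also serve the cytoplasm. Genes of rRNA modification and ribosome assembly, 10 in all, had a median of 18.8 ± 1.16 TPM, led by Dhx30 at 60.02 ± 4.45, Mtg2 at 26.2 ± 2.73 and Eral1, which binds the small rRNA, at 25.5 ± 1.05 TPM.

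The 77 genes of mitochondrial ribosomal proteins had a higher median than the other roles, 74.2 ± 2.35 TPM. They ranged from Mrpl1 at 12.6 ± 1.15 TPM to Mrps21 at 234 ± 4.02 TPM, with Mrpl20 at 207 ± 8.10 and Mrpl42 at 205 ± 12.1 TPM next. Their median log2 ratio between the pools was -0.03, with 53 of 77 below 0 and none past 1.5-fold. Over the 17048 genes averaging at least 20 counts the median was 0.00, 49.5% were below 0 and 6.48% were past 1.5-fold. Most of these ribosomal protein genes average over 1000 counts. Over the 8181 genes averaging at least 1000 counts the median was 0.01, 44.7% were below 0 and 0.477% were past 1.5-fold.

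**Figure D5:**
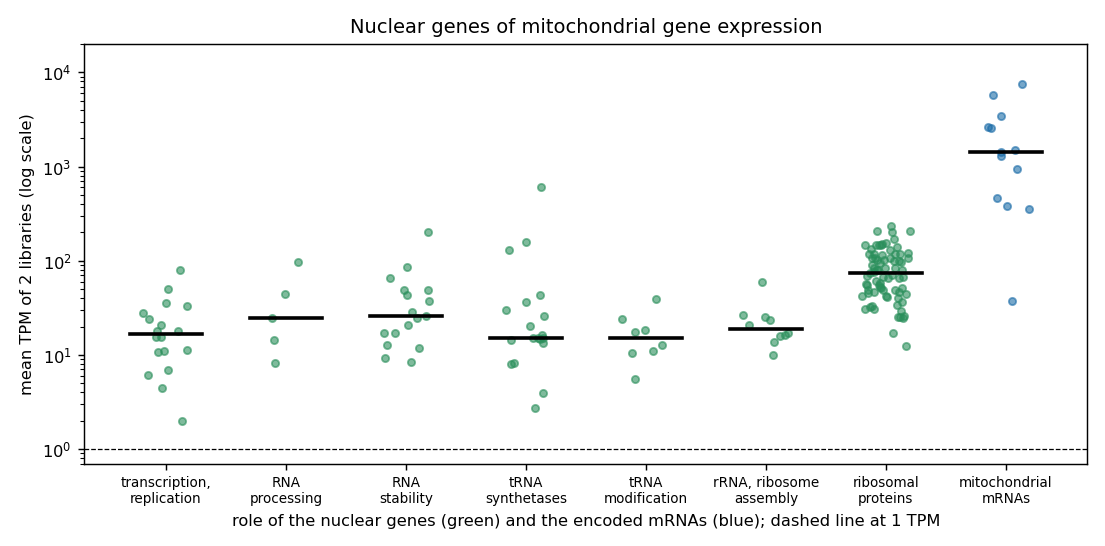
Mean TPM (log scale) of each nuclear gene of mitochondrial gene expression by role, and of the 13 encoded mRNAs by own estimate, with black bars at the medians and a dashed line at 1 TPM. Ribosomal protein genes are the highest nuclear role by median, and all but mt-Nd4l of the encoded mRNAs lie above nearly every nuclear gene shown.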

How the data were processed

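The deposited estimated counts give the reads assigned to each gene or transcript, so they can be fractional, and carry no scaling, per the file headers. The authors scaled the deposited TPM and FPKM by effective length, TPM over every feature of a table. The deposited interval bounds, lengths and posterior SDs are each a signal in the unit its column names. Per the accompanying notes, each table comes from transcriptome alignments of a single library (mm10, GENCODE M4). No aligner, quantifier or strand setting is named in the sources used here.

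Identifiers were matched to GENCODE M21 (42462 of 43346 found). Library sizes leave out 97 spike-ins (2.86% and 3.09% of counts) and 26248 features with numeric names. Copies are annotated nuclear transcripts sharing an exact 100-base word, on either strand, with a mitochondrial gene. TMM factors came from edgeR 4.0.16 in R 4.3.3, with a prior count of 0.5 and a mean count minimum of 20, and DESeq2 1.42.0 gave alternative size factors. The calculation of the ratios was tested on simulated Poisson counts. These held no added spread between pools and no reads shared between gene and copy, so they do not bear on either. The named genes are every mRNA and rRNA, the longest and shortest tRNA, copies at 1 TPM or more in both libraries, and in each nuclear list the 3 highest, any not detected and any past 1.5-fold (for ribosomal proteins the 3 highest and the lowest). The members and lists were chosen with earlier results of these data known. Of 155 listed nuclear symbols Prorp did not match, and its older symbol was on the list.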

Additional observations from a re-analysis of the deposited data

How the results depend on the processing

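With a single group and 2 libraries every value here rests on 2 pools. For mRNAs with a chromosome 1 copy the split of counts adds its own uncertainty. For the 5 mRNAs and 2 rRNAs with no annotated copy it adds almost none (posterior SD of 0.03 counts or less). No paired analysis was possible because there is 1 group. Several alternatives were chosen after seeing the data. These were adding the copies' counts to the mitochondrial genes, the use of mRNAs alone, the scalings for rRNAs and the posterior counts of copies. The share of counts in mitochondrial genes was 2.33% with copies added and 1.28% for mRNAs alone, against 1.68%. Copies held 0.567% by posterior mean counts, against 0.651%. The median mRNA TPM of 1469 was 1901 by posterior mean TPM, 1869 when scaled over nuclear protein-coding genes and 2645 unsplit. The summed rRNA TPM of 4675 was 5955 when scaled over nuclear protein-coding genes. The share of mt-Nd6 was 0.966% by counts and 1.04% unsplit. The median mRNA ratio of -0.0549 was -0.0460 with DESeq2 size factors, -0.17 with spike-in totals, -0.02384 from TPM with a pseudocount of 1 or 0.1 and -0.14 unsplit. The nuclear genes' ratio of -0.0167 was -0.00774 with DESeq2, -0.13 with spike-ins, and 0.00825 and 0.00841 from TPM. The rRNAs' ratio of -0.55 was -0.66 with spike-ins and -0.517 from TPM with either pseudocount. With either library alone the share was 1.59% to 1.77%, and 14 to 15 mitochondrial genes were detected. Of 159 further values for single genes, 91 stayed within their SD or counting interval and 68 did not, 46 of them higher. Values from either library alone fall among the 91 by construction, since each of 2 libraries lies within the SD of their mean. Scaling by spike-in totals lowers every ratio by 0.11 whatever the gene, so the 91 and 68 do not measure robustness. The cause of these differences was not tested.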
